A study of Mus musculus with 4 samples.

Results

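The 7 genes described here encode G protein-coupled receptor kinases (GRKs) and beta-arrestins, and were chosen by name rather than by a limit on their values, with earlier results of these data known. They are Grk6, Grk5, Grk4, Adrbk1 (which encodes GRK2), Adrbk2 (GRK3), Arrb1 and Arrb2, out of the 12417 genes listed in any of 4 mouse bone marrow libraries. The question was which of the other GRKs, and which arrestins, were present as transcripts where GRK6 had been deleted, and whether their levels differed from wild type (WT). The libraries came from WT and GRK6-/- animals, 1 of HSC and 1 of CLP for each genotype, all from untreated young adult C57BL/6 mice, the WT animals being littermates of the knockouts. The gate for hematopoietic stem cells (HSC) was Lin-c-kit+sca-1+, a gate that also holds multipotent progenitors, and the gate for common lymphoid progenitors (CLP) required Il-7Ra+ in addition. The GRK6-/- allele lacks exons 3 to 9 in every cell of the animal, not in blood cells alone. Each library was 1 pool of 13 to 15 cells from 3 to 4 mice, each cell being lysed and amplified by itself with an oligo(dT) primer before pooling, so there were no replicates and no group has an error of its own.

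GRKs phosphorylate G protein-coupled receptors that have bound their ligand, and arrestins then bind the phosphorylated receptor. Binding uncouples the receptor from its G protein, carries it to clathrin-coated pits, and lets arrestin serve as a scaffold for other kinases. GRK2 and GRK3 are cytosolic and reach the membrane through G protein beta-gamma subunits, whereas GRK4, GRK5 and GRK6 are anchored at the membrane by lipid or basic residues. In leukocytes GRK6 and GRK2 act on chemokine receptors such as CXCR4, the receptor that holds stem cells in the marrow.

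Grk6 (Entrez Gene 26385) lies on the plus strand of mm9 chromosome 13, at chr13:55546695-55562286. Its longer coding transcript has 16 exons, 2996 bp in all and 1770 bp of coding sequence for 589 codons. The 7 deleted exons, taken as exons 3 to 9 of this transcript, hold 781 bp, which is 44.1% of the coding sequence and 26.1% of the transcript. The 2215 bp outside them include 1892 bp that follow exon 9, towards the poly(A) tail from which the cDNA was primed. The 2 exon joins that bound the deletion are given below as they read in the GENCODE transcript (plus strand), with the bases of deleted exons in capitals, because a fragment across either of them needs those exons. The first join runs from chr13:55550735-55550764 into chr13:55551626-55551655, and the second from chr13:55553657-55553686 into chr13:55554408-55554437.
Grk6 exon 2 to exon 3: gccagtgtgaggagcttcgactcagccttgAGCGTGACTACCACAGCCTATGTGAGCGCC
Grk6 exon 9 to exon 10: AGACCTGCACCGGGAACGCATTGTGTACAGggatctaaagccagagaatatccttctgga
Division of 781 by 3 leaves a remainder of 1. Joined directly, exons 2 and 10 read 49 whole codons of GRK6, then 2 further codons, and then a stop, 51 codons in all. Which transcript the deleted allele made was not measured, since each library gives 1 value for the whole gene.

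**Figure D1:**
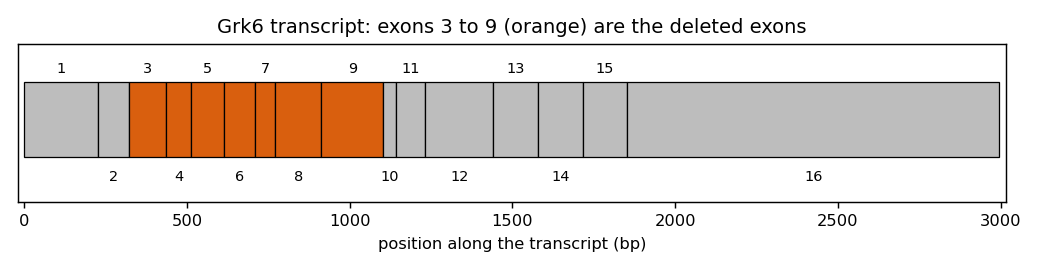
The longer Grk6 transcript drawn to scale, with the position in bp on the horizontal axis and the 16 exons numbered. Exons 3 to 9 (orange) span 781 of 2996 bp, and 1892 bp lie to their right.

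The values were FPKM, counts of fragments divided by transcript length and library size. Genes of different length can be set side by side on this scale only if fragments cover each transcript evenly, which was not measured. In HSC, Grk6 stood at 42.7 FPKM in the WT library and 89.4 in the one labelled GRK6-/-. In CLP it stood at 26.9 and 57.6. Both libraries labelled GRK6-/- were therefore above both WT libraries. The share of all genes with such an order was not computed, so the order does not set Grk6 apart. The ratio to WT was 2.09 in HSC and 2.14 in CLP, or 1.05 and 1.07 as a difference of log2(FPKM + 1), the scale of every log2 fold change below. These 4 values rest on about 372, 1020, 354 and 478 fragments, numbers estimated from the spacing of the lowest FPKM values, which scale with the depth found in that way. With 73.9% of the transcript outside the deletion the gene value cannot check the genotype, and it went against the labels in direction, so each knockout library is called by its label throughout. A larger share of cells carrying the transcript and more RNA per cell cannot be told apart in such pools. Grk6 lay above 81.1% of the genes with a value in WT HSC and 91.5% in the library labelled GRK6-/- HSC, and above 70% and 85.2% in the CLP libraries.

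To see how far reads could be shared between paralogs, the coding sequences were aligned pair by pair. The coding sequence of Grk6 was identical to that of Grk5 at 69.1% of aligned bases, to Grk4 at 65.4%, to Adrbk1 at 59.3% and to Adrbk2 at 57.1%. The longest run of identical bases was 20 with Grk5 and 23 with Grk4, against reads of 100 bases. These runs are shown in capitals, within 15 further bases on each side, because they are the stretches at which a read could most easily be placed on the wrong gene.
Grk6 exon 7: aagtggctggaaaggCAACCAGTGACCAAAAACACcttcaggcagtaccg
Grk5 exon 7: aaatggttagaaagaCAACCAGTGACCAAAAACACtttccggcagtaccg
Grk6 exons 14 and 15: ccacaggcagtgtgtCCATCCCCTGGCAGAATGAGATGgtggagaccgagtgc
Grk4 exons 14 and 15: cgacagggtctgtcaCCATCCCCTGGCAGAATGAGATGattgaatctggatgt
The run shared with Grk5 lies at chr13:55552882-55552901 in Grk6, inside the deleted exons, and at chr19:61148338-61148357 in Grk5. The run shared with Grk4 lies in exons that the deletion keeps. Among the other members Adrbk1 and Adrbk2 were the closest pair, with 74.7% identity and a shared run of 30 bases, followed by Arrb1 and Arrb2 with 73.1% and 18 bases.

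Grk5, the closest relative of Grk6 by sequence, lies at chr19:60965652-61168456. In HSC it was listed at 0.110 FPKM in WT and not at all in GRK6-/-, and in CLP not at all in WT and at 4.90 FPKM in GRK6-/-. A single library thus held nearly all of it, with about 43 fragments (95% exact Poisson interval 31.1 to 57.9, counting error only), against about 1 fragment in WT HSC. In GRK6-/- CLP this level exceeded that of 30.2% of the genes with a value. No fold change to WT CLP can be given, since WT CLP listed no Grk5, and the log2 difference of 2.56 depends on the constant added.

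Grk4, which is best known from testis and kidney, lies at chr5:35003028-35097954. Its only value was 1.45 FPKM, in WT CLP, and the other 3 libraries listed none. It was therefore seen in neither library labelled GRK6-/-. The 1.45 corresponded to about 21 fragments (95% exact Poisson interval 13 to 32.1) for its longest coding transcript of 3235 bp, and to fewer for its shorter ones. How many of the 13 to 15 cells carried it was not measured.

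Adrbk1, which encodes GRK2, the most widely expressed GRK, lies on the minus strand at chr19:4286001-4306222. In HSC it measured 50.0 FPKM (WT) and 58.0 FPKM (GRK6-/-), and in CLP 121 FPKM (WT) and 97.7 FPKM (GRK6-/-). Both CLP libraries lay above both HSC libraries, an order whose share among all genes was not computed, while the 2 genotypes overlapped. The log2 fold change between genotypes was 0.21 in HSC and -0.31 in CLP, the smallest in CLP among the 7 genes. Adrbk1 was above 83.8% to 93.1% of the genes with a value in every library, and was the highest of the 5 GRKs in 3 of the 4 libraries, the exception being the library labelled GRK6-/- HSC, where Grk6 was higher.

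Adrbk2, which encodes GRK3, lies on the minus strand at chr5:113339498-113444811. Its level was 33.2 FPKM in the WT and 16.0 in the GRK6-/- library of HSC, and 7.36 and 16.2 in those of CLP. The 2 WT libraries were the extremes, and both libraries labelled GRK6-/- lay between them. Adrbk2 was thus 2.07-fold lower in GRK6-/- HSC (log2 fold change -1.01) and 2.19-fold higher in GRK6-/- CLP (1.04). The HSC value sat at the 2-fold limit and fell just inside it once the libraries were rescaled to a median ratio of 0.

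**Figure D2:**
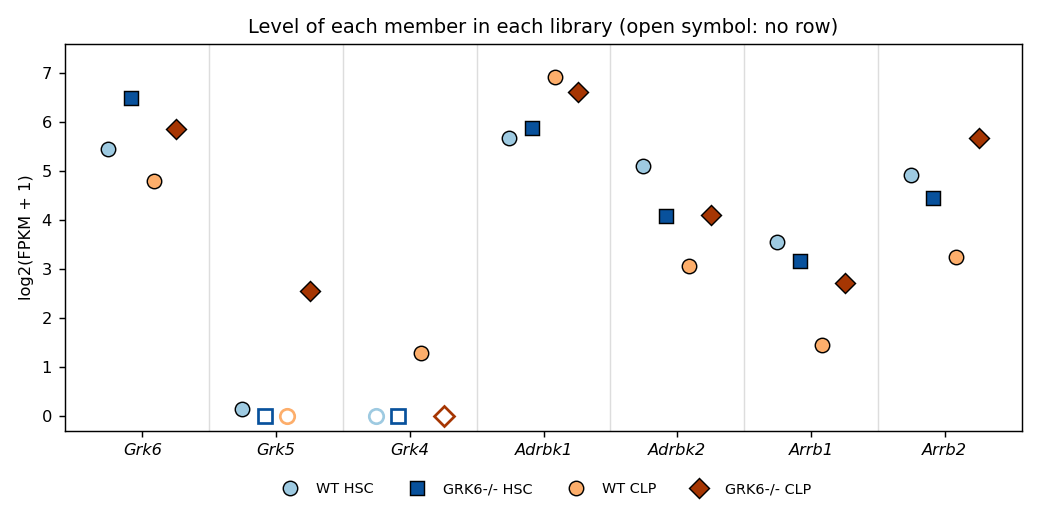
log2(FPKM + 1) of each member (vertical axis) in the 4 libraries, 1 symbol a library, with open symbols where a library listed no value. Grk6 is higher in both GRK6-/- libraries, Adrbk1 in both CLP libraries, and Grk5 reaches 4.90 FPKM in GRK6-/- CLP alone.

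Summed over the 5 GRK genes, HSC held 126 FPKM in WT and 163 in GRK6-/-, and CLP 157 and 176. Grk6 and Adrbk1 together made up most of each sum. The share of Grk6 was 33.9% (WT) and 54.7% (GRK6-/-) in HSC, and 17.2% and 32.7% in CLP. That of Adrbk1 was 39.7% and 35.5% in HSC and 77.2% and 55.4% in CLP. That of Adrbk2 was 26.4% and 9.81% in HSC and 4.7% and 9.16% in CLP. Grk5 and Grk4 never exceeded 2.78% of the sum.

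Leaving out Grk6, the other 4 GRKs summed to 83.3 FPKM in WT HSC and 74 in GRK6-/- HSC, a change of -11.2%. In CLP they summed to 129.8 in WT and 118.7 in the library labelled GRK6-/-, a change of -8.57%. A rise in the summed FPKM of the other GRKs was therefore seen in neither population. Total FPKM also differed between libraries, at 635168 (WT) and 694148 (GRK6-/-) in HSC, and 646260 and 598394 in CLP. The sums of the other 4 GRKs were not recomputed on a common total, and they depend on the division by transcript length. Within these sums, in HSC Adrbk1 was the higher and Adrbk2 the lower in the library labelled GRK6-/-, and in CLP Adrbk1 was the lower while Adrbk2 and Grk5 were the higher. The ratio of Adrbk1 to Grk6 went from 1.17 in WT to 0.648 in GRK6-/- for HSC, and from 4.5 to 1.7 for CLP.

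**Figure D3:**
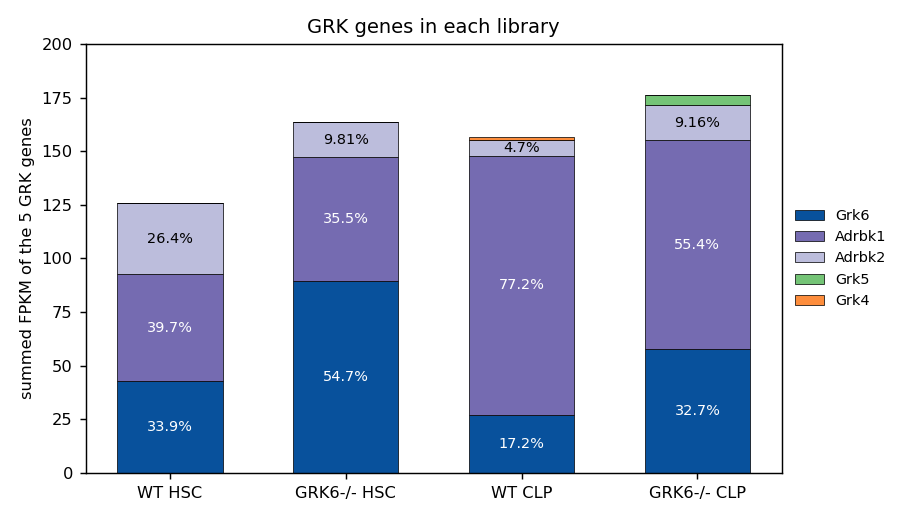
Stacked bars of FPKM for the 5 GRK genes in each library (vertical axis, from 0), with each gene's share of the bar printed where it exceeds 4%. The bars reach 126, 163, 157 and 176 FPKM, and the part above Grk6 is 83.3, 74, 129.8 and 118.7 FPKM.

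Arrb1, the first of the 2 beta-arrestins found in most tissues, lies at chr7:106683976-106755281. It reached 10.8 FPKM in WT and 8.0 FPKM in GRK6-/- HSC, but 1.72 FPKM in WT and 5.57 FPKM in GRK6-/- CLP. The lowest value was that of WT CLP, at about 54 fragments. The ratio of the library labelled GRK6-/- to WT was 0.74 in HSC and 3.24 in CLP, or -0.39 and 1.27 on the log2 scale.

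Arrb2, the other beta-arrestin, known in leukocytes for its part in chemokine receptor internalization, lies at chr11:70246137-70254330. It reached 29.4 FPKM in WT and 20.9 FPKM in GRK6-/- HSC, against 8.50 FPKM in WT and 49.9 FPKM in GRK6-/- CLP. Here too WT CLP was lowest, and GRK6-/- CLP was highest. The ratio of GRK6-/- to WT was 0.712 in HSC and 5.87 in CLP (log2 fold changes -0.47 and 2.42).

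In FPKM, Arrb2 exceeded Arrb1 in every library, by 2.72-fold (WT) and 2.62-fold (GRK6-/-) in HSC, and by 4.95-fold and 8.96-fold in CLP. These ratios rest on the division by transcript length, 7132 bp for Arrb1 and 1848 bp for Arrb2. In estimated fragments Arrb1 was the higher in HSC, at 224 against 158 in WT and 217 against 147 in GRK6-/-. In CLP Arrb2 was the higher, at 69 against 54 in WT and 256 against 110 in GRK6-/-. The summed FPKM of Arrb1 and Arrb2 was 40.2 and 28.9 in HSC, and 10.2 and 55.5 in CLP, again WT first. Summed GRK exceeded summed arrestin by 3.13-fold in WT HSC and 5.65-fold in GRK6-/- HSC, and by 15.3-fold in WT CLP and 3.18-fold in GRK6-/- CLP. WT CLP stood apart in this ratio, with the lowest arrestin values of the 4 libraries.

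Ranked by FPKM within a library, the order in WT HSC was Adrbk1, Grk6, Adrbk2, Arrb2, Arrb1 and Grk5. In both CLP libraries it was Adrbk1, Grk6, Arrb2, Adrbk2 and Arrb1, followed by Grk4 in WT and by Grk5 in GRK6-/-. The library labelled GRK6-/- HSC differed from the CLP order in having Grk6 before Adrbk1. Arrb1 thus came after Grk6, Adrbk1, Adrbk2 and Arrb2 in every library by FPKM. These orders, like the shares above, depend on the division by transcript length. In WT HSC, for example, Adrbk2 had about 633 estimated fragments and Adrbk1 about 491, while Adrbk1 had the more in the other libraries. Without replicates, no neighbours in these orders can be said to differ beyond the spread between pools.

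Read as a comparison of genotypes in HSC, 1 of the 6 members with a value was at least 2-fold higher in the library labelled GRK6-/-, namely Grk6, and 1 was at least 2-fold lower, namely Adrbk2. Of all 11624 genes compared, 19.3% were that much higher and 18% that much lower. Adrbk1, Arrb1, Arrb2 and the trace of Grk5 stayed within 2-fold. The median log2 fold change of the members was -0.27, against 0.048 for all genes. With each library scaled to the same sum, Grk6 stood at 0.91 and was no longer past 2-fold. Scaled so that the median log2 ratio of genes was 0, Adrbk2 was no longer past it, and with a pseudocount of 5 in place of 1 neither gene was.

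In CLP, 5 of the 7 members were at least 2-fold higher in the library labelled GRK6-/- (Grk6, Grk5, Adrbk2, Arrb1 and Arrb2), 1 was at least 2-fold lower (Grk4), and Adrbk1 was within 2-fold. Of all 11191 genes, 26.6% were that much higher and 23.4% that much lower. The members' median was 1.07, against 0.051 for all genes. With a pseudocount of 5, only Arrb2 stayed past 2-fold. With a value required in both libraries the calls of Grk5 and Grk4 were lost, which left 4 members higher and 0 lower. Among genes averaging 10 to 100 FPKM over the 2 libraries compared, a range that held Grk6, Adrbk2 and Arrb2 in both populations and Adrbk1 in HSC alone, 35.6% passed 2-fold in either direction in HSC and 48.1% in CLP, so a change of this size between pools was common.

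GRK6-/- CLP also differed from WT CLP in genes of other blood lineages. Of 8 erythroid markers 5 had a value in it, with a summed FPKM of 17466, against 13.6 to 134 in the other 3 libraries. Hba-a2 made up 17219.5 of this, while Hba-a1, Hbb-b1 and Hbb-b2 were listed in no library. Of 6 B lineage markers 5 had a value in both CLP libraries, summing to 886 in GRK6-/- CLP and 90.3 in WT CLP, against 35.5 and 41.9 in HSC, with Pax5 listed in none. The 4 megakaryocyte markers summed to 115 in GRK6-/- CLP and 13.5 in WT CLP, and to 149 in WT HSC and 13.1 in GRK6-/- HSC. The 8 neutrophil and monocyte markers were high in every library, at 7632 to 17752, the lowest being GRK6-/- CLP, and the 5 T and NK markers summed to 249 to 609, nearly all of it Nkg7. The part of these differences in the values of Grk5, Adrbk2, Arrb1 and Arrb2 was not tested. No count for CLP can be made without this library, as each population has 1 library a genotype.

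The sort markers were checked in the same way. Il7r, the marker of the CLP gate, was not listed for WT HSC and stood at 1.08 FPKM for GRK6-/- HSC, against 120.1 for WT CLP and 75.1 for GRK6-/- CLP. The 7 lymphoid progenitor markers summed to 1318 and 944 in WT and GRK6-/- CLP, against 174 and 121 in HSC. Dntt made up 931 and 562 of the CLP sums. Rag2 was 94.5 in WT CLP and had no value in GRK6-/- CLP. Notch1 went the other way, at 5.54 in WT and 3.73 in GRK6-/- HSC, against no value in WT CLP and 2.71 in GRK6-/- CLP. Kit was present in all libraries at 26.2 to 81.8 FPKM, and the 8 stem and progenitor markers summed to 305 to 461. Ly6a, which encodes Sca-1, could not be read, since 1 library listed it only in a row shared with neighbouring genes and the others not at all.

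Only Grk6 was at least 2-fold higher in the library labelled GRK6-/- of both populations. Of the 10398 genes with a value in both comparisons 5.66% did the same. The other 5 members with a value in both comparisons had opposite signs in HSC and CLP, which with 1 library a group was not tested. The share of all genes with opposite signs was not computed, so this cannot be read as particular to these members.

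**Figure D4:**
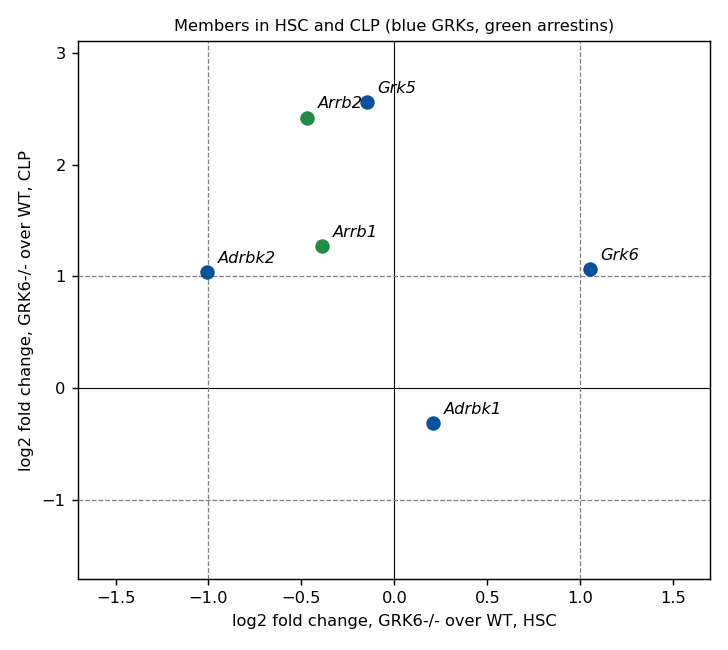
log2 fold change of GRK6-/- over WT in HSC (horizontal axis) and in CLP (vertical axis), 1 point a member, with dashed lines at 2-fold. Grk6 lies past 2-fold on both axes (1.05 and 1.07), Adrbk2 close to 2-fold on both but with opposite signs (-1.01 and 1.04), and Grk4, with no value in HSC, is not drawn.

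The second pair of comparisons set CLP against HSC within each genotype. They share every library with the first pair, so they are another view of the same values. In WT, 2 of the 7 members were at least 2-fold higher in CLP (Grk4 and Adrbk1), where 21.8% of all genes were, and 3 were at least 2-fold lower (Adrbk2, Arrb1 and Arrb2), where 24.7% were. Adrbk1 was 2.42-fold higher in CLP, while Adrbk2 was 4.52-fold, Arrb1 6.29-fold and Arrb2 3.46-fold lower. Between the libraries labelled GRK6-/-, 2 of 6 members were at least 2-fold higher in CLP (Grk5 and Arrb2), against 22.3% of all genes, and 0 were lower, against 23.4%. There Adrbk1 was 1.68-fold higher, Arrb2 2.38-fold higher, Adrbk2 equal to within 1.01-fold, and Arrb1 1.44-fold lower. Grk6 was lower in CLP by 1.59-fold in WT and 1.55-fold in GRK6-/-.

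A fit over all 4 libraries with genotype and population as terms (limma on log2(FPKM + 1)) leaves 1 residual degree of freedom. Its error for a gene combines that gene's disagreement between populations in the genotype effect with the spread of other genes at like levels. At an adjusted p of 0.05 the fit called 1 of 9709 genes for genotype, or 0.0103%, and 5 for population, or 0.0515%. It called 0 of the 5 members that passed its filter. At an unadjusted p of 0.05, 516 of the 9709 genes passed for genotype and 663 for population, again with 0 of these 5 members. That limit lets through a share of about 0.05 of genes even where none differs, so these counts do not measure how many genes changed. The gene called for genotype, named here after its value was seen, was Snora70, a small nucleolar RNA without a value in either WT library, and it was not called with a pseudocount of 0.1. The 5 called for population, also named after the fact, were Ly6d, Cox6a2, Vpreb3, Hist1h2ae and Blnk, all higher in CLP. Without a variance trend in the fit, 0 genes were called for either term, with 503 and 633 at an unadjusted p of 0.05.

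For Grk6 the genotype difference was 1.06 on the log2 scale (95% interval -0.33 to 2.45), the same direction in 2 of 2 populations, with a limma adjusted p of 0.984. The 2 populations barely disagreed on Grk6 (1.05 in HSC and 1.07 in CLP), so the width of its interval comes mostly from the spread of other genes. The genotype difference of Arrb2 was 0.98 (-1.08 to 3.03) and that of Adrbk1 was -0.05 (-1.30 to 1.20), each with an adjusted p of 1. For Adrbk2 it was 0.02 (-2.14 to 2.17), since its opposite changes in HSC and CLP cancelled, and for Arrb1 it was 0.44 (-2.23 to 3.11). For population, the limma difference of Adrbk1 was 1.0 (-0.25 to 2.25, adjusted p = 0.808), higher in CLP in 2 of 2 genotypes. Each interval includes both 0 and a 2-fold difference, so neither a change nor its absence was shown for any of these 5 genes. Grk5 and Grk4 did not reach an FPKM of 1 in 2 libraries and were not in this fit.

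The genes whose profile over the 4 libraries lay nearest to that of Grk6 were Shmt1, Naa35, Golga7, Syce2 and Tssc1. The measure was the root mean square difference of log2(FPKM + 1) after each profile was centred on its own mean, and it ran from 0.083 for Shmt1 to 0.103 for Tssc1. Shmt1, a serine hydroxymethyltransferase, had 16.4 and 34.6 FPKM in HSC (WT, then GRK6-/-) and 9.05 and 19.4 in CLP. Of 6821 genes at 1 FPKM or more in every library, 85 (1.25%) lay within 0.25 of Grk6. With 4 points a profile, such nearness is a description of these pools.

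Nearest to Adrbk1 were Med10, a Mediator subunit, at 0.024 and Wipf2 at 0.049. Nearest to Adrbk2 were Arhgef7, which encodes the exchange factor beta-PIX, at 0.050 and Dclre1b at 0.075. The nearest genes to Arrb1 were Ifi35 (0.037) and Pfkfb4 (0.069), and those to Arrb2 were Letm1 (0.031) and Pcyt2 (0.065). Between members Adrbk2 and Arrb1 had the most similar profiles, at 0.27, and no other pair was nearer than 0.61. Grk6 lay 0.75 from Adrbk2, and further from Adrbk1.

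Beyond the 7 members, 53 genes of receptor desensitization were followed in 6 lists. In HSC 46 of them had a value, of which 3 were at least 2-fold higher and 5 at least 2-fold lower in the library labelled GRK6-/-, with a median log2 fold change of 0.11. In CLP 45 had a value, of which 6 were higher and 11 lower, with a median of -0.07. Against the 19.3% and 18% of all genes in HSC, and 26.6% and 23.4% in CLP, these counts were near or below the background. The visual paralogs Grk1, Sag and Arr3, which act in photoreceptors, were listed in no library.

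Partners and regulators of GRKs and arrestins (17 genes) had 1 higher and 0 lower in HSC, and 0 higher and 7 lower in CLP, with medians of 0.09 and -0.83. Of all genes, 19.3% were that much higher and 18% that much lower in HSC, and 26.6% and 23.4% in CLP. The same shares stand beside the counts of each list below. The highest of the partners were Pebp1, which encodes RKIP, an inhibitor of Raf and of GRK2, and Calm2, a calmodulin gene. Pebp1 was 405 FPKM (WT) and 368 FPKM (GRK6-/-) in HSC, and 325 and 179 in CLP, and the genes below are given in the same order. Pde4d, a cAMP phosphodiesterase that arrestin brings to receptors, was 62.0, 44.8, 17.9 and 2.03, with log2 fold changes of -0.46 and -2.64. Arhgef7 was 12.7, 6.15, 2.56 and 5.71, with log2 fold changes of -0.94 and 0.91.

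Clathrin endocytosis (15 genes) had 1 higher and 2 lower in HSC, and likewise 1 higher and 2 lower in CLP, with medians of 0.34 and -0.07. Clta, a clathrin light chain, stayed between 222 and 314 FPKM in the 4 libraries, and Ap2s1, the small subunit of the AP-2 adaptor, between 130.5 and 225. Cltb, the other light chain, was 18.6, 1.42, 0.464 and 8.53, so that WT HSC and GRK6-/- CLP were high and the other 2 libraries low. Ap2m1, the AP-2 subunit that reads cargo signals, was lower in the library labelled GRK6-/- of both populations, with log2 fold changes of -1.24 and -1.03. Ap2a2, an AP-2 large subunit, had log2 fold changes of 1.09 in HSC and -2.66 in CLP.

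Arrestin domain proteins (6 genes) had 0 higher and 1 lower in HSC, and 2 higher and 1 lower in CLP. Txnip, which binds thioredoxin and glucose transporters, was 101, 62.4, 62.3 and 121 FPKM, with log2 fold changes of -0.69 and 0.95. In CLP the log2 fold change was 2.46 for Arrdc3 and 1.93 for Arrdc4, adaptors for ubiquitin ligases, and -1.17 for Arrdc1. In HSC it was -1.25 for Arrdc3, -0.08 for Arrdc4 and 0.63 for Arrdc2. Among 7 second messenger kinases, which phosphorylate receptors without need of ligand, 1 was higher and 1 lower in HSC, and 2 were higher and 1 lower in CLP. Prkcd, a protein kinase C gene, had a log2 fold change of 1.03 for HSC and 0.70 for CLP, and Prkcb had -1.63 for HSC but 1.69 for CLP. Prkaca, for a catalytic subunit of protein kinase A, had 2.49 in CLP, and Prkce, for another protein kinase C, had -1.84. For Prkacb the values were 0.14 in HSC and 0.31 in CLP.

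A last list of 5 genes held known and proposed partners of GRK6, namely the HSP90 genes and 3 DNA damage kinases. In HSC 0 were at least 2-fold higher and 1 lower, and in CLP 1 was higher and 0 lower. Hsp90ab1 was the highest, at 743 and 1067 FPKM in HSC and 667 and 528 in CLP, and Hsp90aa1 ranged from 109 to 151. Prkdc, which encodes the DNA-PK catalytic subunit, was 7.33, 1.60, 2.16 and 2.97, with log2 fold changes of -1.68 in HSC and 0.33 in CLP. Atm was 9.79, 13.0, 3.59 and 44.3, with a log2 fold change of 3.31 in CLP, and that of Atr was 0.69 in HSC.

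**Figure D5:**
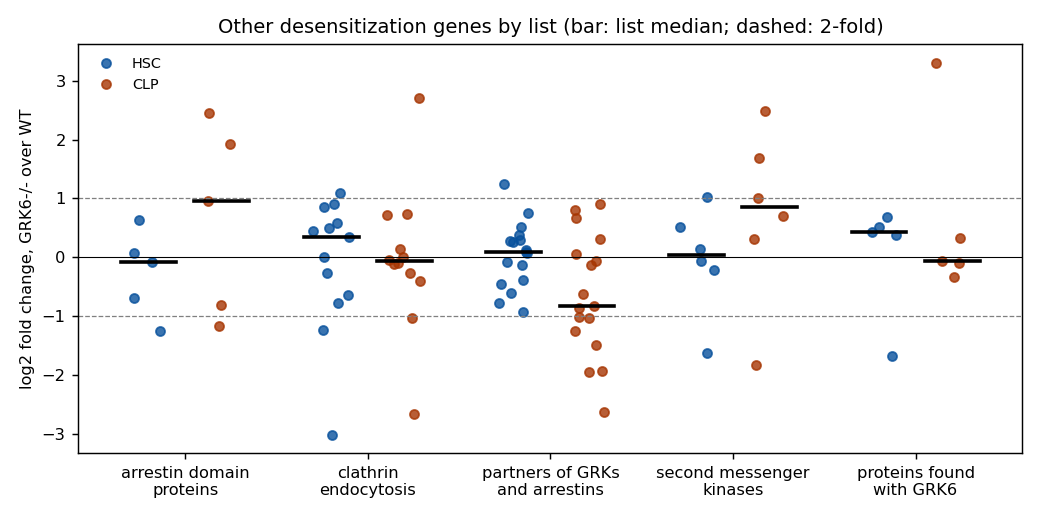
log2 fold change of GRK6-/- over WT (vertical axis) for the genes of 5 lists with a value, in HSC (blue) and CLP (brown), 1 point a gene, with a black bar at each list's median and dashed lines at 2-fold. The partner list has its median at 0.09 in HSC and -0.83 in CLP, and no list lies wholly on one side of 0.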

How the data were processed

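The authors lysed and amplified sorted cells singly with poly(dT) priming, pooled the cDNA of 13 to 15 cells from 3 to 4 mice per group, sequenced 100-bp paired-end reads, and aligned them to mm9 with TopHat 1.4.0 (submitters' processing notes) within the Tuxedo suite. The deposited values are FPKM, 1 per gene and library, listed only where above 0, with no counts. Whether counting used strand is not given in the sources used here.

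A gene without a row was taken as 0. Repeated symbols were summed, and 333 symbols and joint names in rows that name several genes were left out. No member was affected. Fold changes are log2((FPKM + 1)/(FPKM + 1)), and a 2-fold change counts as past the threshold. No pairwise p-value was computed, as each group has 1 library. limma 3.58.1 in R 4.3.3 (eBayes with trend, Benjamini-Hochberg over the 9709 genes that reached 1 FPKM in 2 or more libraries) was fitted to all 4 libraries. Its p-values set the difference of 2 pools per term against an error borrowed in part from other genes. They hold no spread between replicate pools.

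Depth was read from the spacing of FPKM values under 0.3 in genes with 1 transcript of at least 1500 bp. It was the depth that put the largest share of them near 1, 2 or 3 steps. At that depth 74.4% to 82.5% lay within 10% of a step, a share that its choice favoured and that is no check on it. The depth came to 2770000 to 4380000 fragments a library, well below the number of reads that the methods state were sequenced. Estimated fragment numbers and their intervals scale with it. Poisson intervals cover counting error only, and take each fragment as independent. The cDNA went through 20 and then 10 cycles of PCR, so several fragments can be copies of 1 molecule. The intervals, and the counting error used to compare alternatives, can therefore be too narrow by an amount that was not measured. Sequences and coordinates come from GENCODE vM1 on mm9, and 99.5% to 99.6% of the loci in the files overlapped the annotated gene of their symbol. Coding identity was computed with Biopython 1.88. The scripts were tested on simulated data.

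The members and lists were chosen with earlier results of these data known. Named genes are the 7 members, in each list the 2 genes with the highest mean FPKM and the 2 with the largest change per genotype comparison among those at 1 FPKM or more in both, and the genes nearest in profile to each member (5 for Grk6, 2 for the others).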

Additional observations from a re-analysis of the deposited data

Results flagged for a closer look

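For 5 members the difference between the library labelled GRK6-/- and WT had opposite signs in HSC and CLP. Whether HSC and CLP differ in this was not tested, there being 1 library a group. How many of all genes had opposite signs was not computed, so the count of members does not set them apart. On the log2 scale Grk5 was at -0.15 in HSC and 2.56 in CLP, where the HSC value rests on about 1 fragment. Adrbk1 had 0.21 and -0.31, both within 2-fold. Adrbk2 had -1.01 and 1.04, Arrb1 had -0.39 and 1.27, and Arrb2 had -0.47 and 2.42.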

How the results depend on the processing

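Over all alternatives 200 log2 fold changes of members were recomputed, of which 190 stayed within their counting error and 0 of the called ones changed sign. Many of the 190 could not move. Taking the highest row per symbol, keeping rows that name several genes, or requiring a minimum FPKM or a value in both libraries leaves a member's value unchanged or drops it. The 10 that moved came from another pseudocount or from TPM. The number of members past 2-fold in HSC was 2. It became 0 with a pseudocount of 5 or a 4-fold limit, and 1 with rescaling to a median ratio of 0 (Grk6 alone) or to a common sum (TPM; Adrbk2 alone, Grk6 then being 0.91). In CLP it was 6, and became 1 with a pseudocount of 5 (Arrb2), 2 with the 4-fold limit (Grk5 and Arrb2) and 4 with a value required in both libraries (without Grk5 and Grk4). For CLP against HSC in WT it was 5, then 2 with the 4-fold limit and 4 with a value required in both (without Grk4). Between the libraries labelled GRK6-/- it was 2, and 1 with a pseudocount of 5, with a value required in both libraries, or with the 4-fold limit. These follow from the limits themselves, from values near 2-fold or from low values that a larger constant shrinks. Rescaling to TPM moved the median of all genes from 0.048 to -0.072 in HSC and from -0.077 to 0.088 for CLP against HSC in GRK6-/-. In limma the genotype call of 1 gene became 0 with a pseudocount of 0.1, and also without the variance trend, an alternative chosen after seeing the data. The 5 population calls became 1 with a pseudocount of 0.1, with median scaling or without the covariate, 2 without the filter, and 0 without the trend; the cause was not tested. No paired analysis was possible because each group is 1 library and no replicate numbers pair the groups. The limma fit has population as a term beside genotype, and without that term 1 gene was called for genotype. No library can be left out of a comparison of 2.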
